A study of Mus musculus with 17 samples.

Results

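Expression of interferon response and antigen presentation genes was examined in skeletal muscle of mice made diabetic with streptozotocin (STZ), with and without bezafibrate (BEZ). The set comprised 38 named genes, and each was represented by the probe set that carried its symbol alone and had the highest mean over all arrays. A probe set is a group of short probes along a transcript, read out together as 1 log2 expression value. Of the 38 genes, 34 could be measured in this way, out of 19938 genes on the array. Isg15, Gbp2 and Igtp lie on probe sets that carry several symbols, and Ifi44 had no probe set with its symbol alone, so these 4 genes were not analysed here.

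All mice were wild-type C57BL/6N males aged 5 to 6 months, and each of the 17 arrays (Affymetrix Mouse Gene 1.0 ST) holds total RNA of skeletal muscle from 1 biological replicate. In the Con, SD group (n = 7) mice were mock-injected with citrate buffer and ate a standard diet (SD). The STZ, SD group (n = 5) received 65 mg/kg STZ into the peritoneum on each of 5 days at an age of 10 to 16 weeks, which kills the beta cells of the pancreas, and were fed the standard diet too. Mice of the STZ, BEZ group (n = 5) were injected likewise and, from 2 weeks later, ate food with BEZ, an activator of the PPAR nuclear receptors, for 8 weeks. The labels give food strengths of 0.25% or 0.5% without linking a strength to a mouse, so the group may mix both. The methods text of the study gives another STZ dose, a single BEZ strength and controls without injection, and the muscle that was taken is not named. STZ diabetes models loss of insulin after a chemical injury and not autoimmune diabetes.

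Interferons are cytokines that switch on an antiviral programme. Type I interferons bind the receptor of Ifnar1 and Ifnar2, whose kinases Jak1 and Tyk2 activate a complex that holds Stat2 and Irf9 and binds the interferon-stimulated response element (ISRE) of target promoters. Interferon gamma acts through the receptor of Ifngr1 and Ifngr2 and the kinases Jak1 and Jak2, and its target promoters often carry the gamma-activated site (GAS). Both raise genes of antigen presentation. Class I molecules with B2m as their light chain show peptides, loaded through Tap1, Tap2 and Tapbp, on nearly all cells. Class II molecules, assembled with Cd74, are made mainly by professional antigen-presenting cells, which are a minority in muscle tissue. In whole muscle RNA, fewer cells of a type and less RNA per cell cannot be told apart.

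The tissue label held: all 12 muscle fibre markers were outside the 30% dimmest genes, and their mean log2 level lay between 13.07 and 13.38 on every array. Con, SD array 1 stood apart, with a mean level of 11.94 over 13 hepatocyte markers (7.75 to 10.01 on the other Con, SD arrays) and of 8.98 over 8 testis markers (5.32 to 5.95). Arrays of a group correlated with each other at 0.952 or more (Con, SD), 0.988 or more (STZ, SD) and 0.987 or more (STZ, BEZ). Calls were made at a Benjamini-Hochberg adjusted p under 0.1 over all 19938 genes in limma, in keeping with the 10% false discovery rate that the study set, and differences are given on the log2 scale ± SE. Differences are relative to the other genes of an array, because the deposited values were quantile normalized.

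In STZ, SD muscle, interferon-induced genes were more often higher than lower than in Con, SD muscle, by modest amounts. Of the 34 genes, 9 rose, 2 fell and 23 did not pass the test. The 9 that rose were Irf7, Ifih1, Ifit1, Ifit2, Oasl2, Xaf1, Parp14, Tap1 and Tap2, by 1.15- to 1.32-fold. Ifit3 and the class II gene H2-Aa fell. Among all genes tested 13.9% rose and 11.9% fell, against 26.5% and 5.88% of the 34. The 34 were chosen with earlier results of these data known, so this contrast is descriptive and not independent evidence. The median difference of the 34 genes was 0.10, with 22 above and 12 below 0, and that of all genes was -0.01. In this comparison all 13 hepatocyte markers were below 0, with a median of -0.76 and 2 called lower (15.4%). All 8 testis markers were below 0 too, with a median of -0.70 and none called. The part of such RNA in the values of the 34 genes was not tested. Without Con, SD array 1, 10 of the 34 genes rose and 2 fell, beside 2691 and 2739 of all 19938 genes. With Con, SD arrays 1, 3 and 4 left out together, which earlier results of these data set apart, 7 rose and 1 fell. In that setting 1826 of all genes rose and 2281 fell, against 2776 and 2366 with every array kept.

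**Figure D1:**
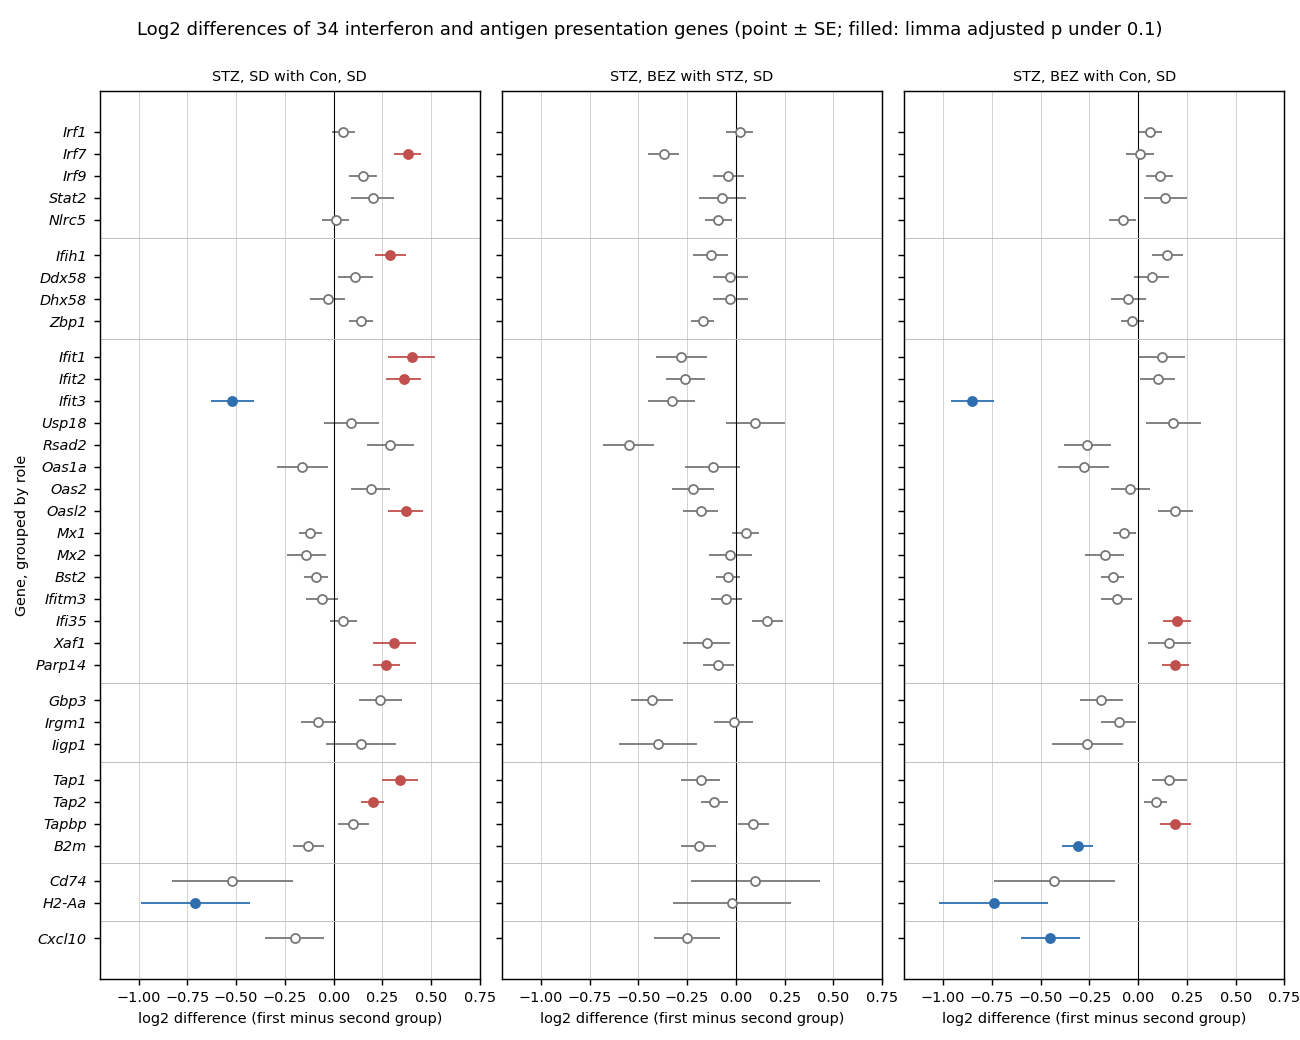
Log2 difference (x axis) of each of the 34 genes (y axis), with its SE as the bar, in the 3 comparisons; lines separate transcription factors, nucleic acid sensors, antiviral effectors, GTPases, class I genes, class II genes and the chemokine Cxcl10. Filled red points were higher and filled blue points lower at a limma adjusted p under 0.1: 9 and 2 in STZ, SD with Con, SD, none in STZ, BEZ with STZ, SD, and 3 and 4 in STZ, BEZ with Con, SD.

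Among the 5 transcription factors and co-activators, Irf7 rose. Irf7 is the factor that amplifies type I interferon production and is itself induced by interferon. Its log2 level in Con, SD ran from 6.11 through a median of 6.38 to 6.49, and it was 6.90, 6.73, 6.56, 6.63 and 6.87 on STZ, SD arrays 1 to 5. Every STZ, SD array lay above every Con, SD array. That held for 2 of the 34 genes (5.88%, Irf7 and Ifih1), a share close to the 4.87% of all genes. The difference was 0.38 ± 0.07 (1.30-fold, limma adjusted p = 0.00151), and it passed in all 28 alternative settings, where it ran from 0.34 to 0.43.

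Irf9, Stat2 and Irf1 moved less. Irf9, the DNA-binding subunit of the ISRE-binding complex, had 0.15 ± 0.07 (limma adjusted p = 0.163), and its call depended on single arrays, since it passed with control array 6 (0.18) or STZ, SD array 3 (0.19) left out. Stat2 ran from 6.67 to 7.33 in Con, SD and from 6.98 to 7.35 in STZ, SD, a difference of 0.20 ± 0.11 (adjusted p = 0.197) that passed without Con, SD array 1 (0.27). Irf1, which interferon gamma induces, had 0.05 ± 0.06, with a range of 6.65 to 6.96 in Con, SD and 6.75 to 6.95 in STZ, SD.

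Nlrc5 switches on class I genes, and its result depended on the probe set. The array carries 19 probe sets with its symbol alone. The brightest had 0.01 ± 0.07, whereas the median over the 19 was 0.14, with 17 of them above 0 and a range from -0.03 to 0.38. With the mean of the probe sets in place of the brightest, Nlrc5 was called higher (0.15, limma adjusted p = 0.0652).

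Of 4 nucleic acid sensors, 1 rose (25%), beside 13.9% of all genes. Ifih1 (MDA5), the sensor of long double-stranded RNA, ran from 6.75 through 7.01 to 7.12 in Con, SD and was 7.60, 7.17, 7.20, 7.18 and 7.21 in STZ, SD. Again no STZ, SD array reached down to the controls, but array 1 stood far above its group. The difference was 0.29 ± 0.08 (1.22-fold, limma adjusted p = 0.023), and it remained called without STZ, SD array 1, its lowest value in any setting being 0.20.

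The other sensors did not pass. Ddx58 (RIG-I), which recognises RNA ends, had 0.11 ± 0.09, with STZ, SD array 1 at 7.88 and the other STZ, SD arrays at 7.34 to 7.48. Dhx58 (LGP2), a regulator of both, was among the 30% dimmest genes and had -0.03 ± 0.09. Zbp1, a sensor of Z-form nucleic acids, had 0.14 ± 0.06 (limma adjusted p = 0.107). It passed without Con, SD array 2 (0.16) or 5 (0.15), without STZ, SD array 4 (0.16), and when the dimmest genes were left out (adjusted p = 0.0842).

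The antiviral effectors and modifiers were the largest group, and 5 of the 15 rose (33.3%) while 1 fell (6.67%), beside 13.9% and 11.9% of all genes. The Ifit genes encode proteins that bind foreign RNA, lie side by side on chromosome 19, and did not move alike. Ifit1 was at 6.15, 5.96, 6.03, 5.97, 6.54, 6.65 and 6.25 on Con, SD arrays 1 to 7 and at 6.96, 6.63, 6.35, 6.59 and 6.59 in STZ, SD. Con, SD arrays 5 and 6 overlapped the STZ, SD range. Ifit1 rose by 0.40 ± 0.12 (1.32-fold, limma adjusted p = 0.0243), but with Con, SD arrays 1, 3 and 4 left out the difference was 0.27 and did not pass (adjusted p = 0.166).

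Ifit2 is among the 30% dimmest genes, where levels are least certain. It ran from 4.93 through 5.14 to 5.40 in Con, SD and was 5.54, 5.46, 5.55, 5.33 and 5.57 in STZ, SD, so that only array 4 lay within the control range. Its rise was 0.36 ± 0.09 (1.28-fold, limma adjusted p = 0.0093).

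Ifit3 moved the other way. It ran from 7.52 through 7.85 to 8.09 in Con, SD and was 7.73, 7.16, 6.92, 7.30 and 7.38 in STZ, SD, with only array 1 inside the control range. The difference was -0.52 ± 0.11 (1.43-fold lower, limma adjusted p = 0.00398) and lay between -0.63 and -0.42 over the alternatives. Ifit3b, a near-identical neighbour of Ifit3 that was added to the set after its values were seen, has its own probe set and is among the 30% dimmest genes. It ran from 4.43 through 4.55 to 5.40 in Con, SD and from 3.73 to 4.12 in STZ, SD, a difference of -0.82 ± 0.13 (limma adjusted p = 0.000457). Probes of one of these genes may also bind RNA of the other, so the pair is no more than 1 observation.

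The promoter stretches of Ifit1 and Ifit3 are shown because these neighbours carry the same ISRE letters while their levels differed in direction. They are from RefSeq (GRCm38.p6, plus strand), given 5′ to 3′, and capitals mark matches to the ISRE pattern, GAAA, any 2 bases, GAAA, read on either strand. The Ifit1 stretch is chr19:34640765-34640833 and the Ifit3 stretch chr19:34583353-34583436, which begin at positions -124 and -176 relative to their transcript starts.
Ifit1: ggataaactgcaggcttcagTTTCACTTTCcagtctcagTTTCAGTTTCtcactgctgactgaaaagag
Ifit3: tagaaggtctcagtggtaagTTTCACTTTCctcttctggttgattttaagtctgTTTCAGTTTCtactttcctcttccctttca
Each holds TTTCACTTTC followed by TTTCAGTTTC. The same stretch of Ifit3b had 84 of 84 bases identical to that of Ifit3.

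Among the oligoadenylate synthetase genes, whose enzymes sense double-stranded RNA and trigger RNA decay, Oasl2 rose. It ran from 7.17 through 7.42 to 7.65 in Con, SD and was 7.98, 7.62, 7.58, 7.74 and 7.81 in STZ, SD. The 2 lowest STZ, SD arrays overlapped the highest control, and the difference was 0.37 ± 0.09 (1.29-fold, limma adjusted p = 0.00599). Oas2 had 0.19 ± 0.10 (adjusted p = 0.207) and Oas1a -0.16 ± 0.13 (adjusted p = 0.405). Oas1a belongs to a family of near-identical copies, so its probe set may take up RNA of the others.

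Xaf1 and Parp14 rose as well. Xaf1, which antagonises the apoptosis inhibitor XIAP, ran from 6.16 through 6.78 to 6.87 in Con, SD and was 7.20, 6.89, 6.81, 6.84 and 7.00 in STZ, SD. Arrays 3 and 4 were within the controls. Its rise of 0.31 ± 0.11 (1.24-fold, limma adjusted p = 0.0681) was lost in 7 of 28 settings, among them both other scalings (0.29 and 0.28) and when STZ, SD array 1 (0.24) or 5 (0.29) or control array 2 (0.27) or 5 (0.30) was left out. Parp14, an ADP-ribosyltransferase, ran from 6.72 through 6.85 to 7.09 in Con, SD and was 7.13, 7.08, 7.06, 7.30 and 7.17 in STZ, SD, where arrays 2 and 3 were just below the highest control. Its difference of 0.27 ± 0.07 (1.21-fold, adjusted p = 0.0113) passed in every setting.

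Rsad2 (viperin), which blocks viral genome synthesis, fell just short. It ran from 6.78 through 6.89 to 7.03 in Con, SD and was 7.49, 7.55, 7.10, 6.87 and 6.87 in STZ, SD, so 3 STZ, SD arrays were above all controls and 2 were among them. The difference was 0.29 ± 0.12 (limma adjusted p = 0.104), and it passed in 7 of 28 settings, among them without STZ, SD array 4 or 5 (0.36 each), Con, SD array 6 (0.31) or STZ, BEZ array 4 (0.29). Usp18, which removes the ubiquitin-like tag Isg15 and dampens receptor signalling, had 0.09 ± 0.14.

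The remaining effectors showed small differences that did not pass. Ifi35 had 0.05 ± 0.07. Bst2 (tetherin), which holds budding virus at the cell surface, had -0.09 ± 0.06 and Ifitm3, which blocks viral entry, had -0.06 ± 0.08. The dynamin-like GTPases Mx1 (-0.12 ± 0.06) and Mx2 (-0.14 ± 0.10) were among the 30% dimmest genes, with Mx1 between 4.10 and 4.40 on all Con, SD and STZ, SD arrays.

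**Figure D2:**
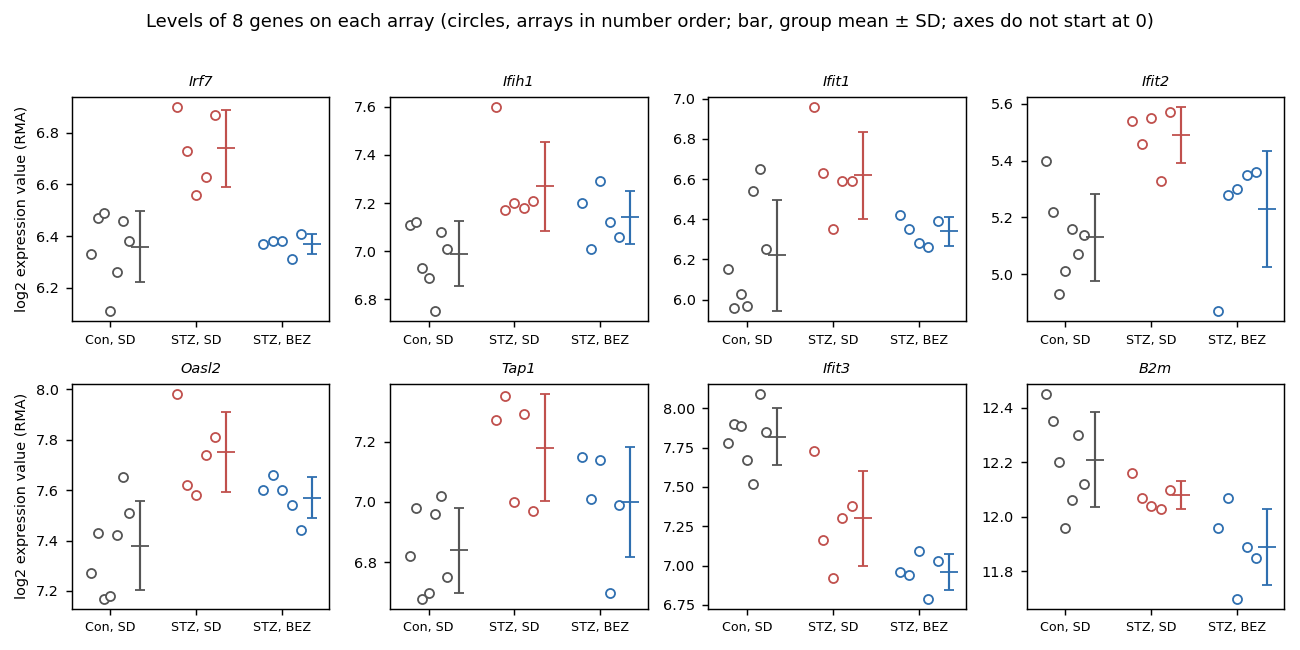
Log2 expression value (y axis) of 8 genes on each array of the 3 groups (x axis); circles are arrays and bars the group mean ± SD. Irf7 on all 5 STZ, SD arrays (6.56 to 6.90) lies above all Con, SD and all STZ, BEZ arrays, whereas Ifit3 on all STZ, BEZ arrays (6.79 to 7.09) lies below all controls (7.52 to 8.09).

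None of the 3 measured interferon-inducible GTPases, which attack the vacuoles of intracellular microbes, passed the test. Gbp3 ran from 6.56 through 6.81 to 7.05 in Con, SD and was 7.41, 7.35, 6.97, 6.78 and 6.80 in STZ, SD, where arrays 1 and 2 were high and the rest within the controls. Its difference of 0.24 ± 0.11 (limma adjusted p = 0.119) passed in 6 of 28 settings, among them without STZ, SD array 4 (0.31) or 5 (0.31) or Con, SD array 6 (0.28). Irgm1 had -0.08 ± 0.09. Iigp1 had 0.14 ± 0.18 and varied widely, from 5.30 to 6.67 in Con, SD, where array 1 was highest.

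Of the 4 class I genes, the transporter subunits rose. Tap1 ran from 6.68 through 6.82 to 7.02 in Con, SD and was 7.27, 7.35, 7.00, 7.29 and 6.97 in STZ, SD, with arrays 3 and 5 inside the control range. Its rise of 0.34 ± 0.09 (1.26-fold, limma adjusted p = 0.0167) did not pass with Con, SD arrays 1, 3 and 4 left out (0.25, adjusted p = 0.113). Tap2 ran from 7.00 through 7.25 to 7.43 in Con, SD and was 7.53, 7.37, 7.46, 7.39 and 7.48 in STZ, SD, a rise of 0.20 ± 0.06 (1.15-fold, adjusted p = 0.0363). Arrays 2 and 4 were inside its control range. Tapbp, the bridge between peptide transporter and class I molecules, had 0.10 ± 0.08, and B2m had -0.13 ± 0.08 (adjusted p = 0.289).

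The class II genes varied widely between STZ, SD mice. H2-Aa, the alpha chain of a class II molecule, ran from 9.41 through 9.56 to 10.00 in Con, SD and was 9.92, 8.31, 8.01, 9.56 and 8.80 in STZ, SD. Arrays 1 and 4 were within the control range, and arrays 2 and 3 were more than 1 log2 unit below its lower end. H2-Aa fell by 0.71 ± 0.28 (1.64-fold, limma adjusted p = 0.0803), a call that 9 of 28 settings lost. Leaving out STZ, SD array 2 (-0.56), 3 (-0.49) or 5 (-0.68), or control array 2 (-0.70), 6 (-0.69) or 7 (-0.65), was enough to lose it. Cd74, the invariant chain, was 9.72, 8.04, 7.67, 9.58 and 8.77 on the same STZ, SD arrays and 8.93 to 9.75 in Con, SD. Its difference of -0.52 ± 0.31 (adjusted p = 0.255) passed without STZ, SD array 1 (-0.76).

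The same arrays were low for other genes of this kind. H2-Ab1 was 9.54, 7.40, 7.31, 8.99 and 8.15 in STZ, SD, against 8.48 to 9.02 in Con, SD, a difference of -0.43 ± 0.32 (limma adjusted p = 0.366). H2-Eb1 was 8.73, 7.68, 7.68, 8.53 and 7.97, against 8.09 to 8.55 in Con, SD (-0.19 ± 0.19). Ciita, the master coactivator of class II genes, stayed between 5.80 and 6.15 on all arrays.

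Cd209a, a marker of monocyte-derived dendritic cells, was also low on STZ, SD arrays 2 and 3. Unlike the class II genes, it was below every control on array 1 as well. It was 7.28, 6.64, 6.72, 8.05 and 7.43 in STZ, SD, against 7.64 to 8.15 in Con, SD, and fell by 0.62 ± 0.19 (limma adjusted p = 0.0305). Cd209a alone of 9 dendritic cell markers was called (11.1%, beside 11.9% of all genes called lower). The mean level of the 9, which include Cd209a, was 5.91 to 6.24 in Con, SD. It was 5.96, 5.93, 5.93, 6.17 and 6.00 on STZ, SD arrays 1 to 5, inside the control range on each. Cd209a is part of this mean, which therefore does not show that the other markers were low on arrays 2 and 3. Of the 9 markers, 4 were above 0 and 5 below in STZ, SD with Con, SD, with a median difference of -0.00. Of the 9, Itgax, Xcr1 and Clec9a were among the 30% dimmest genes. Macrophage and monocyte markers (15 genes, none called) averaged 7.60, 7.03, 6.92, 7.44 and 7.25 on STZ, SD arrays 1 to 5 and 7.08 to 7.37 in Con, SD. Their lowest values were on arrays 2 and 3. Their part in the class II values was not tested.

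**Figure D3:**
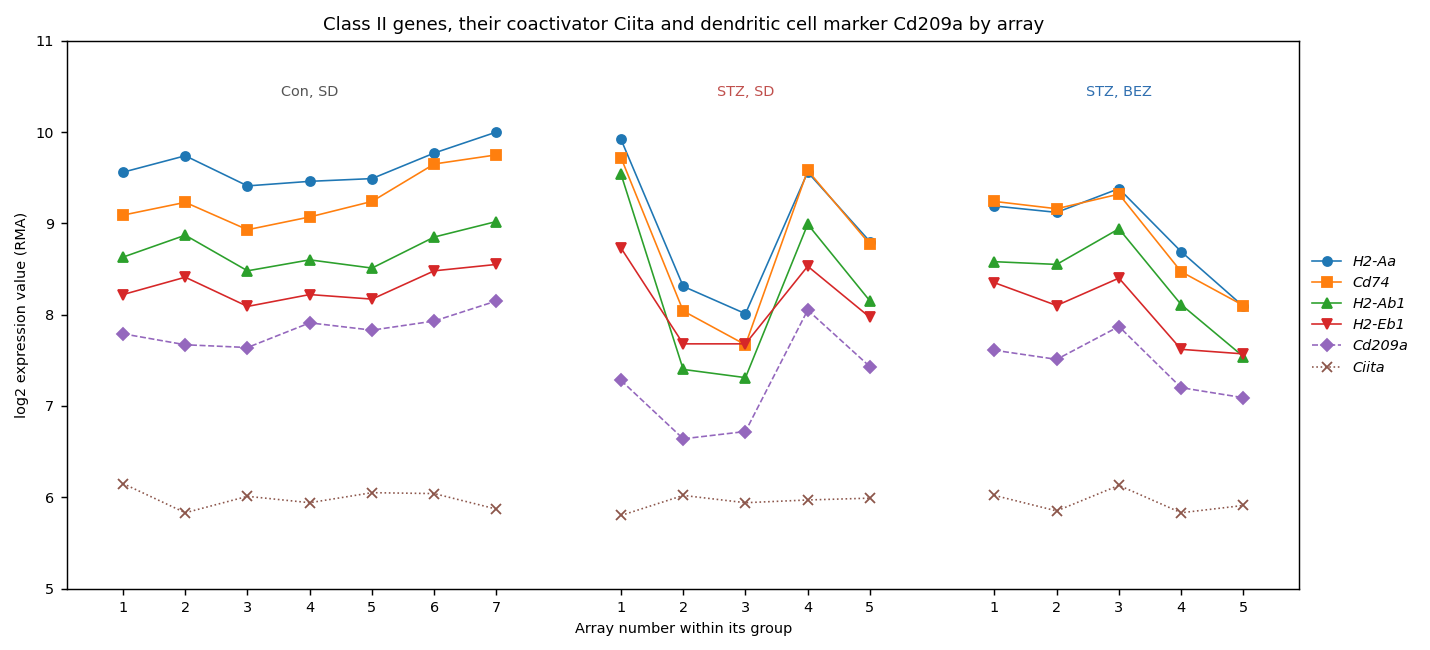
Log2 expression value (y axis) of 4 class II genes, the dendritic cell marker Cd209a and Ciita on each array (x axis, array number within its group); lines only join the points of 1 gene. On STZ, SD arrays 2 and 3 H2-Aa (8.31 and 8.01), Cd74, H2-Ab1, H2-Eb1 and Cd209a are low together, while Ciita stays between 5.80 and 6.15 throughout.

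Cxcl10, a chemokine that draws in activated T cells and is strongly induced by interferon gamma, did not pass. It ran from 5.73 through 6.09 to 6.62 in Con, SD and was 5.91, 5.53, 5.54, 6.35 and 6.07 in STZ, SD, a difference of -0.20 ± 0.15 (limma adjusted p = 0.384). The lowest arrays were again 2 and 3.

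The rest of the pathway was read from a list of 154 further genes, of which 131 were measured. In STZ, SD with Con, SD 27 of them rose and 8 fell, and their median was 0.04. These were 20.6% and 6.11% of the 131, beside 13.9% and 11.9% of all genes. This list, too, was chosen with earlier results of these data known. Upstream, 1 of 15 interferon ligands rose, 1 fell and 13 did not pass. Ifna12, a type I interferon and among the 30% dimmest genes, rose by 0.38 ± 0.10 (limma adjusted p = 0.0161), with levels of 4.94 to 5.31 in Con, SD and 5.34 to 5.58 in STZ, SD with no overlap. Ifnz fell by 0.37 ± 0.11 (adjusted p = 0.0238), with 6.66 to 7.35 in Con, SD and at most 6.80 in STZ, SD, so that the groups overlapped. Ifnb1 had -0.05 ± 0.07 and Ifng 0.09 ± 0.07, both at low levels (4.78 to 5.09 and 5.43 to 5.78 in these groups). Of 10 receptor and JAK-STAT genes, 2 rose and 3 fell. Ifnar2 (-0.34 ± 0.11, limma adjusted p = 0.0445) and Ifngr2 (-0.31 ± 0.10, adjusted p = 0.0474) fell, while their partners Ifnar1 (0.12 ± 0.07) and Ifngr1 (-0.02 ± 0.08) did not pass. Jak2 fell by 0.43 ± 0.14, and the kinase Tyk2 (0.26 ± 0.08) and the cytokine signal transducer Stat3 (0.21 ± 0.05) rose.

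Among the pathway genes with the smallest p, the repressor partners of Irf2 stood out, as Irf2bp2 rose by 0.61 ± 0.09 (limma adjusted p = 0.000292) and Irf2bp1 by 0.42 ± 0.06 (adjusted p = 0.000111), with no overlap between the groups' arrays. All STZ, SD arrays were above all controls for 7 of the 131 pathway genes (5.34%), Ifna12 included, a share close to the 4.87% of all genes. Tor3a (0.35), Ifitm1 (0.30) and Rnf213 (0.38), all inducible by interferon, and the nuclear body genes Sp100 (0.31) and Daxx (0.28) rose too. The proteasome activator subunits Psme1 (-0.36 ± 0.10, adjusted p = 0.0159) and Psme2 (-0.38 ± 0.09, adjusted p = 0.00683), whose complex shapes the peptides cut for class I loading, fell. So, within peptide supply, the transporter genes and the activator genes had opposite signs. H2-K1 and H2-D1 had no probe set with a single symbol and were not analysed here.

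Markers of endothelium, the lining of the vessels in muscle, were also higher in STZ, SD than in Con, SD. Eng rose by 0.57 ± 0.08 and Pecam1 by 0.39 ± 0.09. Of the 11 markers, 6 rose in STZ, SD with Con, SD (54.5%) and none fell, beside 13.9% and 11.9% of all genes. Their mean level ran from 8.58 to 8.78 on control arrays, from 8.79 to 9.05 on STZ, SD arrays and lay at 8.90 or above on STZ, BEZ arrays, with a median of 8.93. T cell (8 genes), B cell (7) and neutrophil (7) markers averaged 5.60 or less on every array, and 4, 4 and 5 genes of these lists were among the 30% dimmest. Of 7 NK cell markers, 6 were among the dimmest. The part of these cells in the interferon genes was not tested.

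In STZ, BEZ muscle none of the 34 genes passed the test against STZ, SD in limma, and few genes did at all, with 0.0201% of all genes higher and 0% lower. At an unadjusted p under 0.05, 8 of the 34 differed and all 8 were lower, whereas 1134 of all genes did, of which 427 were lower. The median of the 34 was -0.10, with 28 below 0 and 6 above, against 0.00 for all genes. Significance analysis of microarrays (SAM), the method named by the study, called 1 of the 34 (Irf7, lower) and 5 genes lower in all.

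Irf7 had the smallest p of the 34. It was 6.37, 6.38, 6.38, 6.31 and 6.41 on STZ, BEZ arrays 1 to 5, all below the lowest STZ, SD array (6.56) and inside the control range. The difference to STZ, SD was -0.37 ± 0.08 (1.29-fold, limma adjusted p = 0.298), and it lay between -0.41 and -0.33 over the alternatives. It passed in SAM and with limma's array weights (-0.36, adjusted p = 0.0881).

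For Rsad2 and Gbp3 the groups' arrays did not overlap either, which held for 3 of the 34 genes and 0.487% of all genes. Rsad2 was 6.83, 6.49, 6.67, 6.33 and 6.83 in STZ, BEZ, against 6.87 to 7.55 in STZ, SD, a difference of -0.55 ± 0.13 (limma adjusted p = 0.444). Gbp3 was 6.66, 6.72, 6.55, 6.57 and 6.65, against 6.78 to 7.41 in STZ, SD (-0.43 ± 0.11, adjusted p = 0.732). The gaps were narrow, and the SD of both genes in STZ, SD was large (0.33 and 0.302).

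Iigp1 had -0.40 ± 0.20 (limma adjusted p = 0.895), with overlapping groups (5.33 to 5.79 in STZ, BEZ and 5.61 to 6.43 in STZ, SD). Ifit1 (-0.28 ± 0.13), Ifit2 (-0.26 ± 0.10), Ifit3 (-0.33 ± 0.12), Zbp1 (-0.17 ± 0.06) and B2m (-0.19 ± 0.09) had an unadjusted p under 0.05 and limma adjusted p from 0.778 to 0.87. Oasl2 (-0.18), Tap1 (-0.18), Tap2 (-0.11), Parp14 (-0.09) and Xaf1 (-0.15) were below 0. Genes called higher in STZ, SD with Con, SD, Irf7 and Ifit1 among them, were picked as high on these same STZ, SD arrays. For such genes values below 0 are partly expected and do not by themselves show an effect of BEZ. The 34 genes also tended to be high on these arrays against Con, SD, with 22 above 0 and 12 below. Rsad2 (0.29) and Gbp3 (0.24) were above 0 there. The same reservation therefore holds for the counts of the 34 genes that were lower or did not overlap. The class II genes differed little between the groups' means, with H2-Aa at -0.02 ± 0.30 and Cd74 at 0.10 ± 0.33, SEs too wide to exclude a sizeable change. Nlrc5 had -0.09 ± 0.07 on its brightest probe set and a median of -0.14 over its 19 probe sets, 18 of them below 0. Irf1 had 0.02 ± 0.07, and its other, dimmer probe set had -0.17. The 131 other pathway genes had none called and a median of -0.04. A p that misses the threshold does not show that the groups were alike.

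The third comparison, STZ, BEZ with Con, SD, shares its arrays with the other two and is given side by side with them. Of the 34 genes, 3 rose and 4 fell, where 13.1% of all genes rose and 8.45% fell. The median was -0.03, against -0.01 for all genes. Irf7 had 0.01 ± 0.07, Ifih1 0.15 ± 0.08, Ifit1 0.12 ± 0.12, Ifit2 0.10 ± 0.09, Oasl2 0.19 ± 0.09 and Tap1 0.16 ± 0.09, none of them called. Oasl2 passed without Con, SD array 6 (0.23), and Oas1a (-0.28 ± 0.13) passed without Con, SD array 1 (-0.35) or STZ, BEZ array 1 (-0.37).

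Ifit3 was lowest here. It was 6.96, 6.94, 7.09, 6.79 and 7.03 in STZ, BEZ, below every control array (7.52 to 8.09), which held for 2 of the 34 genes and 2.5% of all genes. The difference was -0.85 ± 0.11 (1.81-fold lower, limma adjusted p = 0.000139), with a range of -0.90 to -0.79 over the alternatives. Ifit3b, with the reservation above, had -0.90 ± 0.13.

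B2m fell, while the other class I genes did not. It was 12.45, 12.35, 12.20, 11.96, 12.06, 12.30 and 12.12 on Con, SD arrays 1 to 7 and 11.96, 12.07, 11.70, 11.89 and 11.85 in STZ, BEZ, so that the groups overlapped. Its difference of -0.31 ± 0.08 (1.24-fold lower, limma adjusted p = 0.014) passed in every setting. Hepatocyte markers were lower in this comparison too, with 8 of 13 called lower (61.5%, beside 8.45% of all genes), none higher and a median of -1.41. Their mean level ran from 7.75 to 11.94 in Con, SD and from 7.87 to 8.50 in STZ, BEZ. B2m was highest on Con, SD arrays 1 and 2, where these markers were highest (11.94 and 10.01), and lowest on array 4, where they were lowest. On Con, SD array 6, B2m was nearly as high (12.30), with these markers at 8.93. The B2m difference was -0.36 to -0.25 over the alternatives, which include each of these arrays left out. Leaving out single arrays cannot decide the part of these cells in it, which was not tested. Tapbp rose by 0.19 ± 0.08 (adjusted p = 0.0938), a call that 16 of 28 settings lost, and Tap2 had 0.09 ± 0.06.

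Cxcl10 was 5.75, 5.42, 5.92, 5.50 and 5.55 in STZ, BEZ and fell by 0.45 ± 0.15 (1.37-fold, limma adjusted p = 0.0555). Arrays 1 and 3 overlapped the controls. That call was lost without STZ, BEZ array 2 (-0.40), 4 (-0.42) or 5 (-0.44), and with a replicate block (-0.33, adjusted p = 0.202). H2-Aa was 9.19, 9.12, 9.38, 8.69 and 8.09, below every control (9.41 to 10.00), and fell by 0.74 ± 0.28 (1.67-fold, adjusted p = 0.0816). Without STZ, BEZ array 2 (-0.79), 4 (-0.69) or 5 (-0.54) or Con, SD array 2 (-0.72), 6 (-0.71) or 7 (-0.68) it was not called. Cd74 (9.24, 9.16, 9.32, 8.47 and 8.10), H2-Ab1, H2-Eb1 and Cd209a were lowest on STZ, BEZ arrays 4 and 5, and none of these 4 passed. Mean levels of the dendritic cell markers (5.87 and 5.89) and the macrophage and monocyte markers (7.11 and 7.04) were lowest of the group there too. Their part was not tested.

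The other 2 genes that rose were Ifi35 (0.20 ± 0.07, limma adjusted p = 0.0604) and Parp14 (0.19 ± 0.07, adjusted p = 0.0824). Ifi35 was 7.66, 7.71, 7.69, 7.58 and 7.46 in STZ, BEZ and 7.19 to 7.52 in Con, SD, and only array 5 lay within the controls. In 7 of 28 settings it was not called, among them with control array 4 (0.17) or STZ, BEZ array 1 (0.19), 2 (0.18) or 3 (0.19) left out. The call of Parp14 was lost in 12, with values of 0.15 to 0.20 without single Con, SD (3, 4, 5 or 6) or STZ, BEZ (1, 2 or 3) arrays. That of Tapbp was lost when control array 2, 3, 4, 5 or 6, STZ, SD array 2 or 5, or STZ, BEZ array 2, 3 or 4 was left out (0.13 to 0.20). With Con, SD arrays 1, 3 and 4 left out none of these 3 calls was kept.

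Of the 131 pathway genes outside the set, 16 rose (12.2%) and 6 fell (4.58%) in STZ, BEZ with Con, SD, no larger shares than the 13.1% and 8.45% of all genes. Single genes of the list are given for their own values. The feedback inhibitors Socs1 (0.76 ± 0.20, limma adjusted p = 0.0174) and Socs3 (0.42 ± 0.12, adjusted p = 0.021) rose, and in STZ, SD with Con, SD they had 0.38 ± 0.20 (not called) and 0.32 ± 0.12 (adjusted p = 0.0666). Socs1 ran from 7.08 to 7.54 in Con, SD and from 7.38 to 8.72 in STZ, BEZ. Irf2bp1 (0.37), Irf2bp2 (0.49), the adaptor Myd88 (0.23), the ubiquitin ligase Trim25 (0.28) and the inflammatory caspase Casp4 (0.23) rose. Wars (-0.33), a tRNA synthetase induced by interferon gamma, the interferon gene Ifnz (-0.42) and the chemokine Ccl2 (-0.26) fell.

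Promoter letters were compared with these values. RefSeq windows (GRCm38.p6) from 250 bases before to 50 after the transcript start were held for 27 of the 38 genes. The ISRE pattern, on either strand, was in 16 of the 27 (59.3%) and in 3.99% of all 27025 genes with a window. The GAS pattern TTCNNNGAA, which reads the same on both strands, was in 7 (25.9%) and in 9.55% of all genes. Matches of the 2 patterns overlapped in 2 places, 6 pairs of ISRE matches overlapped each other, and 8 of the 27 held neither. Among the genes called higher in STZ, SD with Con, SD, 7 had a window and 2 of these held the ISRE, and among those not called it was 10 of 14. Irf7, Oasl2, Xaf1 and Tap1 had no match of either pattern in this window.

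Stretches of 4 further genes with an ISRE match before the start are printed, chosen from those the STZ, BEZ results name. They are given 5′ to 3′ on the gene's strand with the ISRE match in capitals. Rsad2 (chr12:26456543-26456592, minus strand) and Gbp3 (chr3:142559979-142560034, plus strand) are those whose STZ, BEZ and STZ, SD arrays did not overlap. B2m (chr2:122147528-122147577, plus strand) and Cxcl10 (chr5:92349073-92349122, minus strand) fell in STZ, BEZ with Con, SD.
Rsad2: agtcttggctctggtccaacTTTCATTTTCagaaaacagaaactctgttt
Gbp3: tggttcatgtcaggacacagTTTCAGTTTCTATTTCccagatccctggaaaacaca
B2m: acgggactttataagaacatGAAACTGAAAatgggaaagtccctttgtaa
Cxcl10: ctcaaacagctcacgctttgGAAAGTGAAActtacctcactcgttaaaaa
In Gbp3 the capitals hold 2 overlapping matches. Each of the other stretches holds 1.

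The arrays of a group were not alike. The mean difference of the 34 genes from their Con, SD means was 0.24 on STZ, SD array 1 and -0.09 to 0.09 on the other STZ, SD arrays. STZ, SD array 1 was the highest of its group for 16 of the 34 genes, and array 3 the lowest for 14. In STZ, BEZ the mean ran from -0.15 to 0.00, and in Con, SD from -0.10 to 0.09. Without STZ, SD array 1, 8 genes rose and 3 fell in STZ, SD with Con, SD, beside 2557 and 2092 of all 19938 genes.

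**Figure D4:**
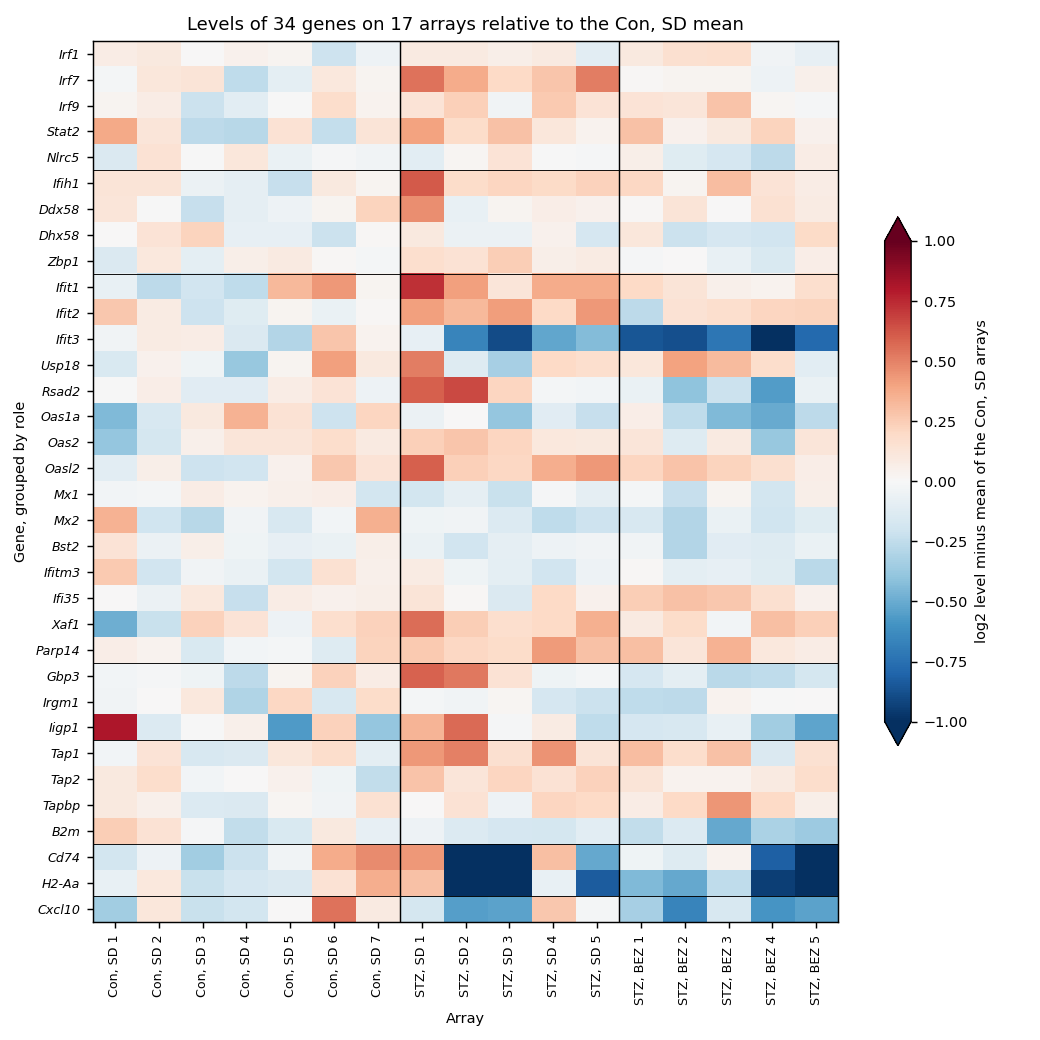
Log2 level of each of the 34 genes (rows, lines separate the roles) on each of the 17 arrays (columns) minus the gene's mean over the Con, SD arrays; the colour scale ends at 1 log2 unit in either direction. STZ, SD array 1 is above the control mean for 25 genes, Ifit3 is below it on all STZ arrays, and H2-Aa and Cd74 are deep blue on STZ, SD arrays 2 and 3.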

How the data were processed

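The authors hybridised total RNA of skeletal muscle to Affymetrix arrays and summarised the probes by robust multi-array averaging (RMA), whose quantile step gives all arrays nearly 1 distribution. The deposited values are on the log2 scale. Affymetrix Expression Console 1.2 is named in the submitters' notes. The number of arrays limits the precision. Of 35556 probe sets, 21789 carried 1 symbol, 1621 several and 12146 none in the probe table. The brightest probe set per symbol left 19938 genes (999 genes had several). Groups came from the labels. In R 4.3.3, limma 3.58.1 (lmFit, eBayes) fitted the 17 arrays at once, with Benjamini-Hochberg adjustment over all genes and a threshold of 0.1. The p-values measure the spread between these mice. SAM was run with 100 permutations of an own implementation. The scripts were tested on simulated data.

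The members and gene lists were chosen with earlier results of these data known. Named were all measured members, the 10 called pathway genes with the smallest p in each comparison, and H2-K1, H2-D1, H2-Ab1, H2-Eb1, Ciita, Ifnar1, Ifnar2, Ifngr1, Ifngr2, Ifnb1 and Ifng, beside an item that is not reported here. Jak2, Tyk2, Ifna12, Ifit3b and the marker genes were chosen after their values were seen. Levels of different genes were not compared. Alternatives were 2 other scalings, 30% dimmest genes left out, other choices of probe set, only the compared groups, array weights, a trend and robust spread, SAM, a replicate block and arrays left out. Scan dates were not used here, so no batch was tested.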

Additional observations from a re-analysis of the deposited data

Results flagged for a closer look

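Single arrays stood far from their group in 5 of 102 groups of values (34 genes in 3 groups), where chance gives about 5%. In each, the gap to the nearest array was above Dixon's 95% critical value as a share of the group's range. In STZ, SD, array 1 was high for the RNA sensors Ifih1 (log2 level 7.60, next 7.21) and Ddx58 (7.88, next 7.48), and array 5 was low for Irf1 (6.75, next 6.92). In STZ, BEZ, array 1 was low for Ifit2 (4.87, next 5.28). In Con, SD, array 7 was low for Mx1 (4.14, next 4.30). Ifit2 and Mx1 are among the 30% dimmest genes. Of these genes, Ifih1 and Ifit2 were called in STZ, SD with Con, SD. The Ifih1 call held without STZ, SD array 1. The Ifit2 array belongs to neither group of that comparison, so leaving it out bears only on the shared spread. In the comparisons that do hold STZ, BEZ arrays, Ifit2 was not called in any setting.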

How the results depend on the processing

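Of 2925 values of single genes under 28 alternative settings, 0 calls reversed, 67 lost and 37 gained a call, and 45 values without a call changed sign. Genes called higher in STZ, SD with Con, SD numbered 9 (8 to 12 with 1 array left out, 7 to 11 otherwise). Genes called lower there numbered 2, and 1 with a trend and robust spread, with a replicate block or with Con, SD arrays 1, 3 and 4 left out (1 to 3 with 1 array left out). In STZ, BEZ with STZ, SD 0 were called, except 1 lower with array weights and 1 with SAM. In STZ, BEZ with Con, SD the 3 called higher became 0 after a second quantile normalization or without Con, SD arrays 1, 3 and 4 (0 to 3 with 1 array left out). Only Ifi35 was kept with only the compared groups or with array weights. With a replicate block none of the 3 was kept, and Oasl2 was called higher instead (0.27, limma adjusted p = 0.057). The 4 called lower became 8 with SAM and 2 with a replicate block (2 to 5 with 1 array left out). Counts over all 19938 genes moved as well. Those called higher went from 2614 to 2144 after the second quantile normalization and to 1569 without Con, SD arrays 1, 3 and 4. Those called lower went from 1684 to 2408 with SAM and to 1497 with a replicate block. The cause of these moves was not tested. Replicate numbers did not pair the samples: same-numbered arrays had correlations of -0.239 to 0.083 and none was best with its own number. With the replicate block Tap2 was not called (0.14). With the dimmest 30% of genes left out, 30 of the 34 could be tested.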
